A study of Mus musculus with 4 samples.

Results

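The globin genes encode the protein chains of haemoglobin, and their messenger RNAs were read in erythroid cells of mouse fetal liver. They were taken by gene name from the deposited table of all genes. Of the 9 names sought, 8 are in the table of 10716 genes. These are the alpha-like genes Hba-x, Hba-a1, Hba-a2, Hbq1 and F830116E18Rik, and the beta-like genes Hbb-y, Hbb-bh1 and Hbb-b1. The level of Hbb-b2, the other adult beta-like gene, is not analysed here. RefSeq gives F830116E18Rik as an older name of the theta-globin gene Hbq1b, and Hbq1 as an older name of Hbq1a.

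The study sequenced RNA of YFP-positive erythroid cells sorted from C57BL/6 fetal livers at embryonic day 14.5, to learn which transcripts differ when the RNA-editing enzyme ADAR1 is removed from these cells. A pair of libraries (replicates 1 and 2) is labelled as an Epor-ADAR knockout, where Epor (the erythropoietin receptor gene, active in erythroid cells) is read here as the driver of a Cre recombinase, which the labels do not spell out. Their genotype is given as Epor-Adar / +, which does not say whether 1 or both Adar alleles were lost, and they are called knockout-labelled here. The controls (replicates 3 and 8) have a genotype given as wild type, and the R26eYFP reporter is part of the sorting protocol given for all 4 libraries. The labels do not say whether each library is 1 embryo, so each p-value reflects the spread among the 4 libraries alone, part of which may be technical.

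Haemoglobin pairs alpha-like with beta-like chains around haem. In the mouse, primitive erythroid cells from the yolk sac use the embryonic chains zeta (Hba-x), epsilon-y (Hbb-y) and beta-h1 (Hbb-bh1), and definitive erythroid cells of the fetal liver use mainly the adult chains (Hba-a1, Hba-a2 and the adult beta genes). The theta-like genes lie among the adult alpha genes, and no settled role is known for their products. In bulk RNA, fewer cells of a type and less RNA per cell cannot be told apart.

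On the mouse build NCBIM37 the alpha-like cluster is on chromosome 11, plus strand. It runs from Hba-x (ENSMUSG00000055609, 32176400 to 32178116) through Hba-a1 (ENSMUSG00000069919, 32183511 to 32184465), F830116E18Rik (32186965 to 32187784) and Hba-a2 (ENSMUSG00000069917, 32196489 to 32197301) to Hbq1 (32200069 to 32200873). The beta-like cluster is on chromosome 7, minus strand, with Hbb-y (ENSMUSG00000052187, 111000259 to 111001754), Hbb-bh1 (ENSMUSG00000052217, 110990150 to 110991678) and Hbb-b1 (ENSMUSG00000052305, 110975048 to 110976610).

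The promoters of both embryonic genes whose levels were highest in the knockout-labelled libraries are shown with those of an adult gene of each cluster and of the theta-like gene that was also higher there. Each is the 250 bases before the RefSeq start, 5′ to 3′ on the gene's strand, located on NCBIM37 by an exact match. The RefSeq start lies 200 bases inside the GENCODE start given above for Hba-x, 161 for Hba-a1, 168 for Hbb-b1 and 33 for Hbb-y, so those windows reach into the GENCODE gene, and it lies within 1 base for F830116E18Rik. They lie at chr11:32176350-32176599 (Hba-x), chr7:111001722-111001971 (Hbb-y), chr11:32186714-32186963 (F830116E18Rik), chr11:32183422-32183671 (Hba-a1) and chr7:110976443-110976692 (Hbb-b1, listed by RefSeq as Hbb-bs). Capitals mark matches on either strand to GATA (the core of GATA1 sites), CACCC (the core of KLF1 sites), CCAAT (the box bound by NF-Y), TGACC (part of nuclear receptor sites) and TATAA (the start of a TATA box).
Hba-x: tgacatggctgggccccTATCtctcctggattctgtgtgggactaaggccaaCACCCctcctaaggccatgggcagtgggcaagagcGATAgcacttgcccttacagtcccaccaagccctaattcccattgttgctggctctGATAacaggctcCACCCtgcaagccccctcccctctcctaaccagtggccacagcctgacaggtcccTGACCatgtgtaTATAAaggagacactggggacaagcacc
Hbb-y: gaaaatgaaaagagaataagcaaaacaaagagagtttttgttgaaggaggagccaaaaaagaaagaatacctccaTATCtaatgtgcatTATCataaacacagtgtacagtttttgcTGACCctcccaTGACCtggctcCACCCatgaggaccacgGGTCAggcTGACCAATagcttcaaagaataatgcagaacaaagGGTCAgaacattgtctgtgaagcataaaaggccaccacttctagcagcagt
F830116E18Rik: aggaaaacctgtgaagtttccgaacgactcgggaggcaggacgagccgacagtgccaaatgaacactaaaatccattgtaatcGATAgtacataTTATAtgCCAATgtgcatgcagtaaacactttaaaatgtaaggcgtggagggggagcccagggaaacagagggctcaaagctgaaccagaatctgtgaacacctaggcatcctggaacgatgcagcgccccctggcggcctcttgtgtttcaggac
Hba-a1: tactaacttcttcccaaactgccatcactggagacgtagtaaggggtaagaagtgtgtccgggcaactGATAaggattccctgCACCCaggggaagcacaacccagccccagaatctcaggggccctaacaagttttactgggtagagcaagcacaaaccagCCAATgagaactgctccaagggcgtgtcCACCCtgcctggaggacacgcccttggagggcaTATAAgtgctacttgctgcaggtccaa
Hbb-b1: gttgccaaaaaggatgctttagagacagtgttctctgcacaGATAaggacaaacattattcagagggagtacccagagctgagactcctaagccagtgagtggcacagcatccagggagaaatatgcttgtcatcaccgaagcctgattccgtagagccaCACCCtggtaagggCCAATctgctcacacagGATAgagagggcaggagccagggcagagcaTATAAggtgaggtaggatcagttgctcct

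Hba-x held 3 matches to GATA, 2 to CACCC, 1 to TGACC and 1 to TATAA, with none to CCAAT. Hbb-y held 5 matches to TGACC, of which 1 overlaps its only match to CCAAT, with 2 to GATA, 1 to CACCC and none to TATAA. Hba-a1 held 1 match to GATA, 2 to CACCC, 1 to CCAAT and 1 to TATAA, and Hbb-b1 held 2, 1, 1 and 1 of the same motifs. Neither adult promoter printed here held TGACC. Of the adult promoters searched but not printed, Hba-a2 held 0 matches to TGACC and Hbb-b2 held 1, the same number as Hba-x. No promoter entry was found for the embryonic Hbb-bh1, so its promoter was not searched. F830116E18Rik held 1 match to GATA, 1 to CCAAT and 1 to TATAA, with none to CACCC or to TGACC. Its TATAA match was on the opposite strand at -156 from the RefSeq start, against -28 in Hba-x, -27 in Hba-a1 and -29 in Hbb-b1. Over 32851 RefSeq promoter windows of the same length, 53.6% held GATA, 52.0% held CACCC, 33.8% held CCAAT, 35.2% held TGACC and 22.8% held TATAA, and 14 windows (0.04%) held 5 or more TGACC matches. The motifs and this number were chosen after the sequences and counts had been seen. The Hba-a1 sequence matched NCBIM37 at 2 places, 1 before each adult alpha gene. These matches are letters in a window and were not tested for binding.

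The globin genes that stood out were Hba-x and Hbb-y, both embryonic, and the theta-like F830116E18Rik. Hba-x was 9.58-fold higher in the knockout-labelled libraries on the fitted scale, Hbb-y 3.24-fold and F830116E18Rik 2.51-fold. The third embryonic gene, Hbb-bh1, differed by 1.08-fold, and the adult genes were 1.11- to 1.52-fold lower on the same scale. None of the 8 passed edgeR's quasi-likelihood test (adjusted over all genes), where 0.103% of 10716 genes passed. At an unadjusted p below 0.05 there were 3 of the 8 globins, against 9.82% of all genes higher and 2.08% lower. DESeq2 called 3 (Hba-x, Hbb-y and F830116E18Rik) where it called 3.49% of all genes, edgeR's likelihood ratio test 2 (Hba-x and F830116E18Rik) where it called 3.26%, and limma-voom 0 where it called 0.0747%.

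Levels are given as CPM, counts scaled to one common library total after TMM, a scaling that assumes most genes to be equal between libraries. The knockout-labelled libraries are called KO1 and KO2 and the controls C3 and C8, by their replicate numbers. The libraries held 28356401 to 44016809 counts in the table, of which globins took 5.69% to 8.67%. Adar, the targeted gene, measured 67.1 CPM in KO1, 102 in KO2, 50.9 in C3 and 46.9 in C8, so its level did not show the deletion. Where in the gene the deletion lies is not given in the sources used here. Counts of Y-linked genes went against the sex label in 3 libraries. KO2 had no count of the Y-linked Eif2s3y, against 3244 in KO1, 1990 in C3 and 3768 in C8, so KO1 and KO2 did not come from the same embryo. Among erythroid markers, the anion exchanger gene Slc4a1 measured 10537 to 15988 CPM, the haem synthesis gene Alas2 3158 to 4747 and Epor 131 to 225, so the labelled cell type had its markers in each library.

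Among the embryonic genes, Hba-x measured 1303 CPM in KO1, 384 in KO2, 62.8 in C3 and 113 in C8. Both knockout-labelled libraries lay above both controls, and KO1 was 3.39-fold above KO2. Group means were 844 ± 650 and 88.0 ± 35.6 CPM (SD, n = 2 each), with a log2 fold change of 3.26 (SE 0.64, edgeR adjusted p = 0.218). The range of the log2 value was 2.13 to 3.88 when 1 library was left out, with 2.13 without KO1 and 3.88 without KO2. In the authors' deposited table the adjusted p of Hba-x is 0.24.

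Hbb-y, the embryonic beta-like partner, measured 3324 CPM in KO1, 943 in KO2, 488 in C3 and 828 in C8. The groups did not overlap, but KO2 was close to C8. Group means were 2134 ± 1683 and 658 ± 240 CPM (SD, n = 2 each), giving a log2 fold change of 1.70 (SE 0.62, edgeR adjusted p = 0.413). Without KO1 the log2 value fitted was 0.52, and without KO2 it was 2.33. The size of the Hbb-y difference thus rested on KO1.

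Hbb-bh1, which lies next to Hbb-y on the side of the adult genes, measured 177 CPM in KO1, 131 in KO2, 154 in C3 and 130 in C8. The groups overlapped, giving a log2 fold change of 0.11 (SE 0.23, edgeR adjusted p = 0.801). It turned to -0.12 without KO1 and to -0.01 without C8. Over the 4 libraries the profile of Hbb-bh1 lay farther from that of Hba-x (root mean square difference 1.60 in centred log2 CPM) than the profile of Hbb-y did (0.80).

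**Figure D1:**
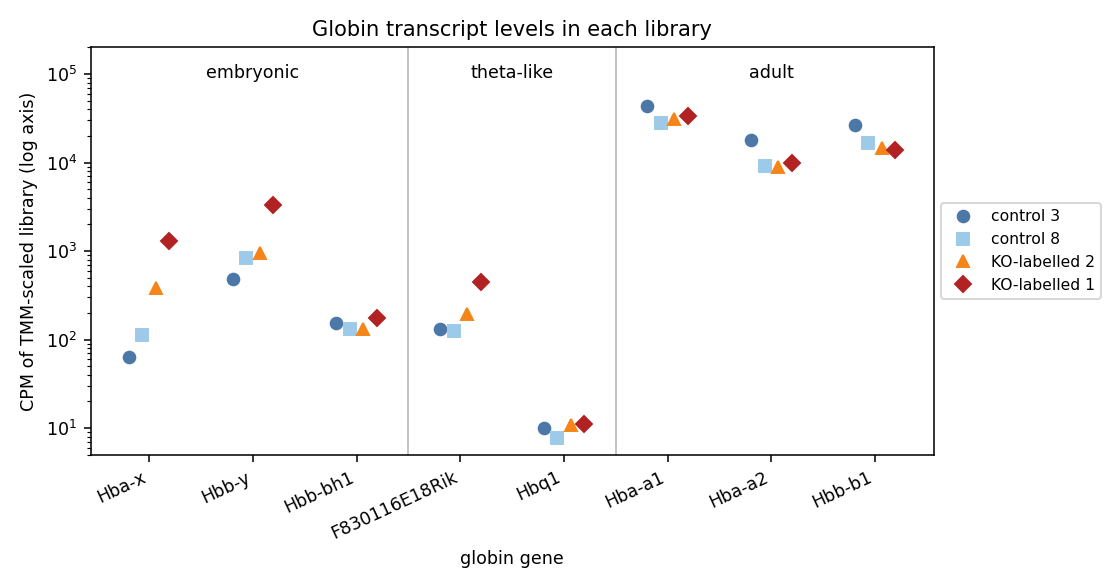
Level of each globin gene in each library, in CPM of the TMM-scaled library on a log axis, with 1 point per library (KO-labelled, knockout-labelled). Hba-x runs from 62.8 to 1303 CPM with both knockout-labelled points above the controls, while the points of Hbb-bh1 lie between 130 and 177.

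The theta-like gene F830116E18Rik measured 445 CPM in KO1, 196 in KO2, 130 in C3 and 125 in C8. Both knockout-labelled libraries were above the controls, and the controls were within 1.04-fold of each other. Its fitted log2 value was 1.33 (SE 0.39, edgeR adjusted p = 0.355), and it was 0.62 without KO1 and 1.79 without KO2. Hbq1, the other theta-like gene, measured 11.2 CPM in KO1, 10.9 in KO2, 10.2 in C3 and 7.67 in C8. Its groups did not overlap, by a small margin, and the fitted log2 value was 0.31 (SE 0.26, edgeR adjusted p = 0.553), with 0.11 to 0.53 when 1 library was left out. The coding sequences of this pair are 93.8% identical, and 39.8% of 50-base windows of the Hbq1b transcript also occur in Hbq1a, so the split of reads between them is uncertain.

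The adult alpha gene Hba-a1 measured 33348 CPM in KO1, 31008 in KO2, 43360 in C3 and 28231 in C8. The groups overlapped, since the controls lay on both sides of the knockout-labelled libraries, giving a log2 fold change of -0.15 (SE 0.39, edgeR adjusted p = 0.847). Hba-a2 measured 9793 CPM in KO1, 8825 in KO2, 18158 in C3 and 9166 in C8. Its groups overlapped too, with a log2 fold change of -0.55 (SE 0.42, edgeR adjusted p = 0.522). Without C3 the log2 values turned to 0.19 for Hba-a1 and 0.02 for Hba-a2. The coding sequences of Hba-a1 and Hba-a2 differ at 1 of 429 bases (99.8% identical), so how the counts divide between them depends on how shared reads were treated, which is not given in the sources used here.

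Hbb-b1, an adult beta gene, measured 13845 CPM in KO1, 14768 in KO2, 26758 in C3 and 16776 in C8. Both knockout-labelled libraries were below both controls, by a narrow margin against C8. Group means were 14307 ± 653 and 21767 ± 7059 CPM (SD, n = 2 each), with a log2 fold change of -0.61 (SE 0.38, edgeR adjusted p = 0.469), and of -0.23 without C3. Hbb-b1 and Hbb-b2 are 99.8% identical in their coding sequence, and the treatment of reads they share is not given either.

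In all, 4 of the 8 globins had both knockout-labelled values above both control values (Hba-x, Hbb-y, F830116E18Rik and Hbq1), as 27.4% of all genes did, and 1 (Hbb-b1) had both below, as 26.7% of all genes did. The median log2 fold change of the 8 was 0.21, against -0.001 over all genes. The spread of single libraries shows in the plot of fold changes with 1 library left out.

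**Figure D2:**
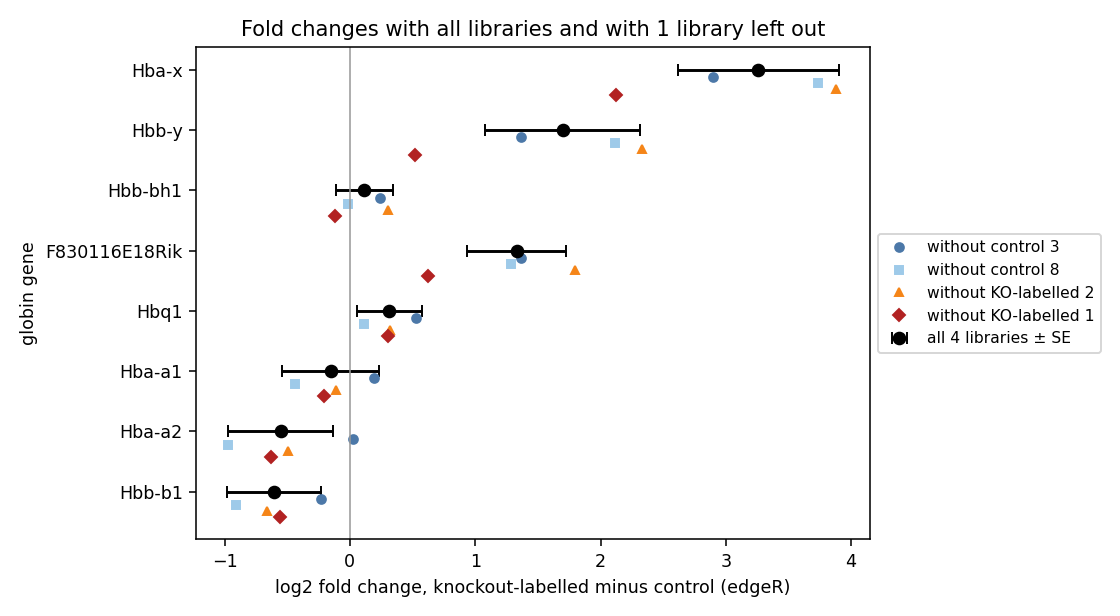
Log2 fold change of each globin gene, knockout-labelled minus control, from edgeR with all 4 libraries (black, bars are SE) and with each library left out in turn (coloured). Hba-x stays between 2.13 and 3.88, while Hbb-y is 0.52 without KO1, and Hba-a1, Hba-a2 and Hbb-bh1 cross 0.

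To order the levels of different genes, CPM was divided by exon length. On that scale Hba-a1 led in each library, with 34770 to 53400 CPM per kb, and Hbb-b1 (16040 to 31010) and Hba-a2 (13170 to 27100) came next. Hbb-y followed in each library, with 738 and 1252 CPM per kb in C3 and C8 and 5029 and 1427 in KO1 and KO2. Below it the order differed between the groups. In both controls Hbb-bh1 (251 and 212 CPM per kb) was above F830116E18Rik (179 and 172) and Hba-x (66.9 and 121). In both knockout-labelled libraries Hba-x (1389 and 410) was above F830116E18Rik (614 and 270) and Hbb-bh1 (288 and 213). The gap between F830116E18Rik and Hbb-bh1 in the knockout-labelled libraries was no larger than the spread of F830116E18Rik between them. Hbq1 was last, at 12.7 to 18.5 CPM per kb.

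The embryonic to adult ratio was read from raw counts within each library, so it does not depend on library scaling, and it is per count, not per exon length. Hba-x made up 2.93% (95% Wilson interval 2.90 to 2.96) and 0.955% (0.940 to 0.971) of alpha-like counts (Hba-x, Hba-a1 and Hba-a2) in KO1 and KO2. In C3 and C8 it made up 0.102% (0.0972 to 0.107) and 0.302% (0.294 to 0.310). Both knockout-labelled shares were above both controls, and the lower of them was 3.17-fold above the higher control. That margin was close to the spread within the knockout-labelled and control groups (3.07-fold and 2.96-fold). These intervals cover counting error only, and they are far narrower than the spread between libraries of 1 group.

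On the beta side, Hbb-y and Hbb-bh1 together made up 20.2% (95% Wilson interval 20.1 to 20.3) and 6.78% (6.72 to 6.84) of beta-like counts (with Hbb-b1) in KO1 and KO2. The shares were 2.34% (2.31 to 2.38) and 5.40% (5.35 to 5.45) in C3 and C8. Again the groups did not overlap, but the margin was 1.26-fold, smaller than the spread within either group (2.98-fold and 2.31-fold). Group means of the embryonic share were 1.94% ± 1.40 and 0.202% ± 0.141 on the alpha side and 13.5% ± 9.48 and 3.87% ± 2.16 on the beta side (SD, n = 2 each). With 2 libraries against 2, an exact two-sided permutation test cannot give a p below 0.333, so these shares are given without a test. Hbb-b2 would add to the adult side, so the beta-like shares hold for the genes counted. As a ratio to adult counts, the group means were 1.99% and 0.202% (alpha) and 16.3% and 4.05% (beta), and per exon length they were 1.65% and 0.166%, and 21.4% and 5.36%.

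**Figure D3:**
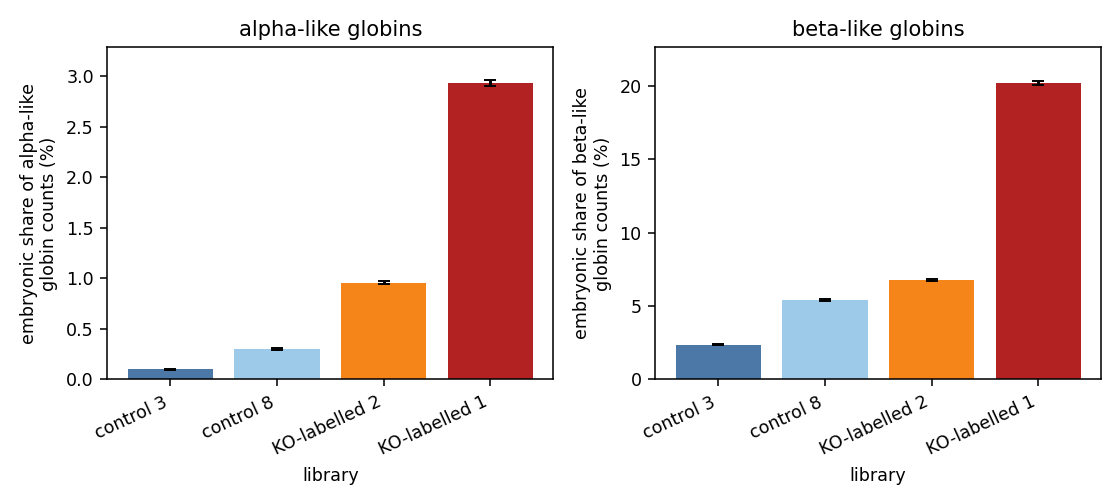
Embryonic share of alpha-like counts (left, Hba-x) and of beta-like counts (right, Hbb-y and Hbb-bh1) in each library, in percent, with 95% Wilson intervals for counting error. In both panels the order is control 3, control 8, knockout-labelled 2, knockout-labelled 1, from 0.102% to 2.93% and from 2.34% to 20.2%.

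The shares of both clusters put the 4 libraries in the same order, yet the genes did not differ by the same factor. The count of Hba-x per count of Hbb-y was 0.392 in KO1, 0.407 in KO2, 0.129 in C3 and 0.137 in C8. This ratio differed 3.01-fold between the group means (0.400 ± 0.0108 and 0.133 ± 0.00566, SD, n = 2 each) and by no more than 1.06-fold within a group. The level of Hba-x itself differed 3.39-fold between the knockout-labelled libraries, so their ratio was close although their levels were not. This ratio and the others between pairs of genes were added after the files had been seen.

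Within the beta cluster, Hbb-y counts per Hbb-bh1 count were 18.8 in KO1, 7.21 in KO2, 3.16 in C3 and 6.36 in C8. This ratio followed the level of Hbb-y, with KO2 near C8. Alpha-like counts without the theta-like genes (Hba-x, Hba-a1 and Hba-a2) per beta-like count were 2.56 in KO1, 2.54 in KO2, 2.25 in C3 and 2.12 in C8. That balance was 1.17-fold higher in the knockout-labelled group by its means (2.55 ± 0.0168 and 2.18 ± 0.0935, SD, n = 2 each), without overlap. Its beta side holds Hbb-y, Hbb-bh1 and Hbb-b1. Hbb-b2 would add to that side, so the balance and its difference hold only for the genes counted. Hba-a1 counts per Hba-a2 count were 3.41 and 3.51 against 2.39 and 3.08.

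**Figure D4:**
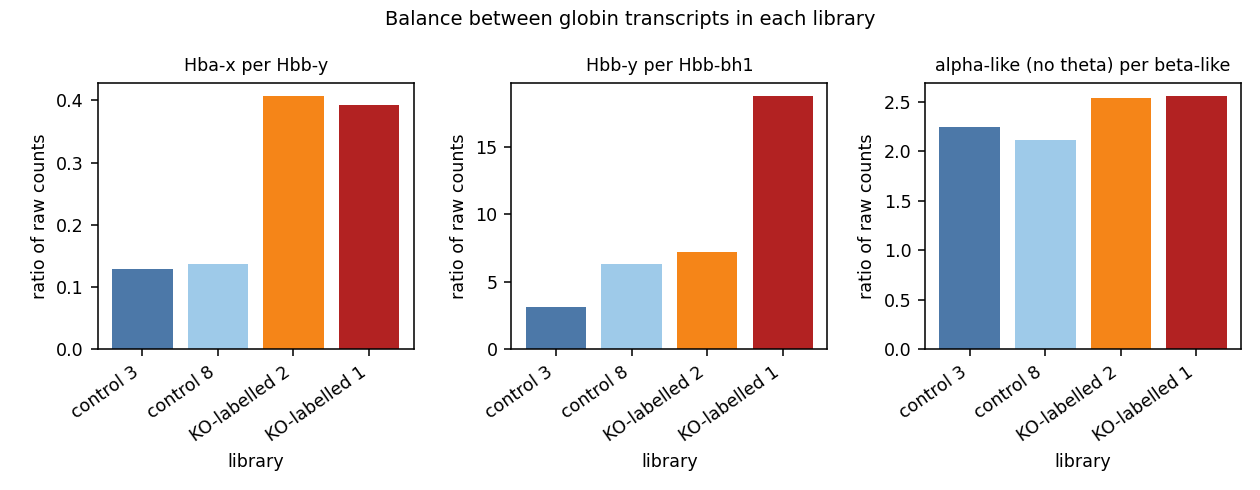
Ratios of raw counts in each library, for Hba-x per Hbb-y (left), Hbb-y per Hbb-bh1 (middle) and alpha-like without theta-like genes (Hba-x, Hba-a1 and Hba-a2) per beta-like globins (right). The beta-like globins counted are Hbb-y, Hbb-bh1 and Hbb-b1, without Hbb-b2. The left panel separates the groups (0.129 and 0.137 against 0.407 and 0.392), while in the middle panel control 8 (6.36) is near knockout-labelled 2 (7.21).

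Genes around the alpha cluster were read because its enhancers lie in the introns of a neighbouring gene, Nprl3 (Mare in the table, its older name). Of 16 measured genes on the list of flanking genes, 4 lie on mouse chromosome 11 beside the cluster, 11 on chromosome 17 and 1 (Polr3k) on chromosome 2, by the annotation. None of the 16 passed edgeR's quasi-likelihood test (adjusted over all genes), where 0.103% of all genes did. At an unadjusted p below 0.05 there were 2, both higher (9.82% of all genes were). DESeq2, which called 3.49% of all genes, called these 2. The list median was 0.12. They were Rhbdf1, which encodes an inactive rhomboid protein, and Rgs11, a regulator of G-protein signalling. Rhbdf1 measured 19.2 CPM in KO1, 5.26 in KO2, 1.63 in C3 and 3.42 in C8, in the same library order as Hba-x. The fitted log2 value was 2.26 (SE 0.69, edgeR adjusted p = 0.362), and it is on the minus strand, with its start at -54.1 kb from that of Hba-x. Without KO1 the Rhbdf1 value was 1.03, and without KO2 it was 2.89. The library order shared by Rhbdf1 and Hba-x was also that of Rgs11 and of Hbb-y, so it was not limited to chromosome 11. How many of all genes have this order was not counted. Rgs11, on chromosome 17, measured 15.7 CPM in KO1, 3.06 in KO2, 0.471 in C3 and 1.48 in C8, with a log2 fold change of 3.22 (SE 0.91, edgeR adjusted p = 0.353), of 1.59 without KO1 and of 3.92 without KO2 (adjusted p = 0.00717).

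The genes between Rhbdf1 and Hba-x had smaller values. The DNA repair gene Mpg had a log2 fold change of 0.15 (SE 0.19, edgeR adjusted p = 0.687) and Nprl3 of 0.11 (SE 0.21, edgeR adjusted p = 0.801). Mpg lies within the span of Nprl3, on the opposite strand. Since the use of strand in counting is not stated, reads from any stretch that their exons share cannot be told apart. Snrnp25, on the far side of Rhbdf1, had 0.39 (SE 0.23, edgeR adjusted p = 0.462). The higher values along chromosome 11 were thus at Rhbdf1, Hba-x and F830116E18Rik, with genes of smaller differences between them, each of the 3 smaller without KO1 (1.03, 2.13 and 0.62), and they were singled out after their values were seen.

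**Figure D5:**
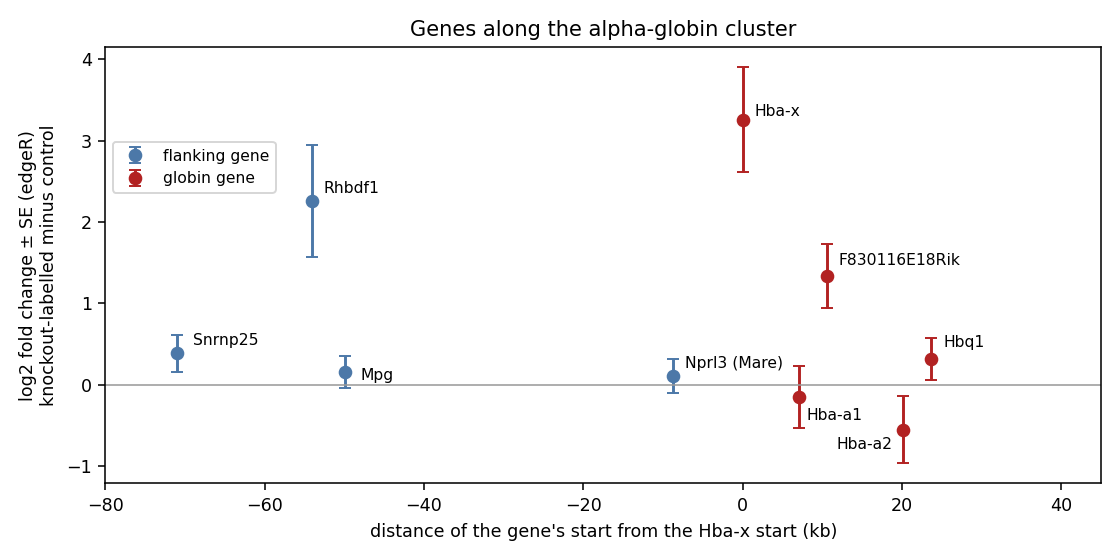
Log2 fold change (edgeR, knockout-labelled minus control, bars are SE) of genes on chromosome 11 against the distance of their start from that of Hba-x, in kb. Rhbdf1 (2.26), Hba-x (3.26) and F830116E18Rik (1.33) lie above genes between them such as Nprl3 (0.11) and Hba-a1 (-0.15).

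Regulators of globin genes were read from a list of 27 names, of which 25 were measured. None passed edgeR's quasi-likelihood test (adjusted over all genes), where 0.103% of all genes did. None had an unadjusted p below 0.05, against 9.82% of all genes higher and 2.08% lower. DESeq2, which called 3.49% of all genes, called 0. The list median was -0.08, with values from -0.75 to 0.49. Klf1, the activator that binds CACCC motifs, measured 204 CPM in KO1, 520 in KO2, 689 in C3 and 533 in C8. It was lowest in KO1, and the fitted log2 value was -0.75 (SE 0.45, edgeR adjusted p = 0.464). A link between Klf1 and globin levels was not tested. Without KO1 the Klf1 value was -0.23, and without KO2 it was -1.59. Hdac2, a histone deacetylase, had -0.42 (SE 0.22, edgeR adjusted p = 0.439), with -0.21 without KO1 and -0.68 without KO2.

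Other regulators are named for their roles, after their values were seen. Bcl11a, a repressor of embryonic globins, measured 82.2 CPM in KO1, 79.2 in KO2, 71.4 in C3 and 78.7 in C8. Zbtb7a, another such repressor, had 73.5 and 221 against 296 and 197 CPM, with the groups overlapping and KO1 lowest. Sox6, which acts with Bcl11a, had 447 and 478 against 503 and 357, and Myb had 54.7 and 39.4 against 38.9 and 48.5. Nr2c1 and Nr2c2, receptors that bind TGACC repeats in embryonic beta-like promoters, had log2 fold changes of 0.01 (SE 0.29) and -0.20 (SE 0.18). Without KO2, 7 of the 25 passed, in a fit that called 32.6% of all genes.

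Maturation was read from a list each of late and early genes, since globin levels rise as erythroid cells mature. Of 17 late genes, such as the haem synthesis gene Alas2, 0 passed edgeR's quasi-likelihood test, where 0.103% of all genes did. At an unadjusted p below 0.05 there were 0, against 9.82% of all genes higher and 2.08% lower. DESeq2, which called 3.49% of all genes, called 0, and the median was -0.23. Their summed level was 37150 CPM in KO1, 46850 in KO2, 57990 in C3 and 41180 in C8, so the groups overlapped and C3, with the highest adult globins, was highest. The members with the smallest p were Fbxo7 (log2 fold change 0.62, SE 0.26, edgeR adjusted p = 0.433) and the nuclear export gene Xpo7 (-0.75, SE 0.44, edgeR adjusted p = 0.462). Of 12 measured early genes, 0 passed and DESeq2 called 0, with a median of 0.34, and the 1 gene higher at an unadjusted p below 0.05 is a share near the 9.82% of all genes. The members with the smallest p were Vim, of intermediate filaments (0.82, SE 0.33, edgeR adjusted p = 0.419), and the RNA-binding protein gene Igf2bp3 (-0.48, SE 0.25, edgeR adjusted p = 0.439). Without KO1, Vim was at 0.45, Igf2bp3 at -0.30, Fbxo7 at 0.28 and Xpo7 at -0.36, and Xpo7 was at -0.29 without C3. Without KO2, where 32.6% of all genes passed, Vim (1.10), Igf2bp3 (-0.70) and Fbxo7 (0.89) passed.

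Levels of markers of other cells also differed between the libraries, and their part in the globin differences was not tested. Aqp3 and Aqp8, water channel genes known from primitive erythroid cells, had a summed level of 25.8 CPM in KO1, 31.3 in KO2, 38.9 in C3 and 53.1 in C8. Both genes had both knockout-labelled values below both controls, as 26.7% of all genes did. For Aqp8 the margin between KO1 and C8 was narrow. Whether primitive erythroid cells had a part in the Hba-x and Hbb-y differences was not tested. The 8 measured neutrophil markers of 10 summed to 342 CPM in KO1 and to 39.9, 44.5 and 48.5 in the other libraries, with Elane and Ctsg not in the table. Without KO1 the Hba-x log2 fold change was 2.13, in a fit that leaves 1 knockout-labelled library, and the part of neutrophils was not tested. The 9 macrophage markers summed to 7.21 CPM in KO1, 16.0 in KO2, 61.2 in C3 and 27.5 in C8, and 7 had both knockout-labelled values below both controls, as 26.7% of all genes did. The 6 measured megakaryocyte markers of 7 summed to 152 and 102.5 against 60.4 and 87.6 CPM, and the 6 measured hepatoblast markers of 8 to 57.3 and 66.1 against 121 and 48.2. None of the markers measured was at 0 in a library.

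Genes outside the globins whose profile over the 4 libraries was most like that of Hba-x were found by the root mean square difference of centred log2 CPM. Of 9633 genes whose log2 CPM averaged 1 or more, 5 lay within 0.25 of Hba-x. They were Bst2 (0.17), which encodes the antiviral membrane protein tetherin, Bnip3 (0.17), a mitophagy receptor gene, Spry1 (0.17), an inhibitor of growth factor signalling, Hk2 (0.21), a hexokinase gene, and Trim12 (0.23), a TRIM family gene. Bnip3 measured 415 CPM in KO1, 104 in KO2, 14.6 in C3 and 33.5 in C8, with the library order of Hba-x. For the adult Hbb-b1, 711 genes lay within 0.25, and the closest were Il6ra (0.05), Tmc6 (0.05), Khdrbs3 (0.06), Macf1 (0.07) and Rcbtb1 (0.07). With 4 libraries such likeness is a description, and Hbb-y was farther from Hba-x (0.80) than these 5 genes were.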

How the data were processed

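Per the submitters' processing notes, the tools included TopHat2 2.0.8, HTSeq, edgeR and limma, on mm9 and NCBIM37, with no roles stated. Strand use and the treatment of reads shared between genes are not given in the sources used here. The count columns are raw per the file headers and were taken as the authors deposited them. The authors' deposited p-value and adjusted p-value columns were copied for the globins, and other deposited values were not used.

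Counts of all 10716 genes were fitted in edgeR 4.0.16 (R 4.3.3) with filterByExpr (0 genes removed), TMM and glmQLFit with robust=TRUE and legacy=TRUE. The fit left 2 residual degrees of freedom per gene, to which the two-sided quasi-likelihood F test adds prior ones estimated over all genes. The p-values were adjusted by Benjamini-Hochberg over the whole table, with a threshold of 0.05. The SE is the absolute log2 fold change over the square root of F. Groups came from the sample titles. Alternatives were other scalings, filters and settings, DESeq2 1.42.0, limma-voom (limma 3.58.1) and leaving out each library. The fit was checked on simulated counts.

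Exon lengths and positions came from GENCODE vM1 on NCBIM37, sequence identity from Biopython alignments (1.88) and promoters from RefSeq on GRCm38.p6, placed on NCBIM37 by exact match. Promoter entries were found for 8 of the 9 names, all but Hbb-bh1. By rule, the named genes were the globins, the 2 members of smallest p in each other list and the 5 genes most like Hba-x and like Hbb-b1. Other regulators, chromosome 11 neighbours and markers were named for their role or place after their values were seen. The members and lists were chosen with earlier results of these data known.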

Additional observations from a re-analysis of the deposited data

How the results depend on the processing

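The count of globins that passed, 0 with all libraries, was 3 with DESeq2, 2 with the likelihood ratio test and 0 to 3 with 1 library left out (3 without KO2). The count over all genes, 11, was 87 without library scaling, 374 with DESeq2, 349 with the likelihood ratio test and 27 to 3492 with 1 library left out (143 for KO1, 3492 for KO2, 41 for C3 and 27 for C8). The flanking list went from 0 to 2 with DESeq2. Leaving out each library gave 0 to 7 for the globin regulators, 0 to 5 for the flanking genes, 0 to 2 for late and 0 to 4 for early genes, with the highest value in each without KO2. The cause was not tested. A fit that leaves 1 library in a group assumes that it varies like the others. Leaving out 1 library gave log2 values of -0.44 to 0.19 for Hba-a1 and -0.97 to 0.022 for Hba-a2, reversed without C3, and of -0.12 to 0.30 for Hbb-bh1, reversed without KO1 (-0.12) and without C8 (-0.01). No scaling, filter or test turned the direction of any of the 8 globins. The log2 difference of the embryonic to adult ratio was 3.28 on the alpha side (2.46 to 4.10 with 1 library left out) and 1.87 on the beta side (0.975 to 2.77). The robust=FALSE setting was added after the data were seen. A denominator of Hbb-b1 alone equals the main one here. No paired analysis was possible because the groups share no replicate number. Depth limits no globin here, since the lowest count was 280 (Hbq1), and 2 libraries per group limit the tests.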
